A study of Mus musculus with 2 samples.

Results

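The 40 genes described here serve the cell division cycle, and they were taken by symbol from a fixed list among the 19960 genes of the files. The list holds 16 genes of S phase and 24 of G2 and M phase, and all 40 symbols were found. They were read in T, B, plasma, NK and myeloid cells of the mouse omentum, a fatty fold of the peritoneum whose leukocyte clusters are called milky spots. One single-cell library came from WT mice and one from DTR mice, in which Postn was targeted with a receptor for diphtheria toxin (DT), so that DT removes stromal cells that express Postn. Mice of both genotypes received DT and were taken 5 days later, and the mice of a genotype were pooled. With 1 library per genotype no difference could be tested: intervals in brackets are exact 95% counting intervals, or large-sample intervals for a ratio of 2 shares, they cover counting error only, and a difference of genotype cannot be told apart from a difference between these 2 libraries.

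A dividing cell copies its DNA in S phase and parts the copies in M phase, with the gaps G1 and G2 between. Before S phase, Cdc6 and Cdt1 load the Mcm2 to Mcm7 helicase onto replication origins, and cyclin E with its kinase starts copying. Rising cyclin A and cyclin B with Cdk1 then drive G2 and mitosis, until the anaphase promoting complex, helped by Cdc20 and Ube2c, marks the cyclins for destruction. Most resting lymphocytes and mature neutrophils do not divide, whereas plasmablasts and granulocyte precursors do.

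Genes of late and of early cycle phases are known to carry different promoter elements, and members with the clearest element of each kind are shown. Each run is 170 bases of RefSeq promoter sequence on build GRCm38.p6, 5′ to 3′ on the gene's strand, ending 20 bases past the transcription start, with motif letters in capitals. The first 3 belong to G2 and M genes and show TTTGAA (or its reverse TTCAAA) beside CCAAT (or its reverse ATTGG). The last 2 belong to S genes and show TTTGGCGC or the reverse of TTTCCCGC, and Mcm6 shows ATTGG as well.
Ube2c (chr2:164769779-164769948, plus strand): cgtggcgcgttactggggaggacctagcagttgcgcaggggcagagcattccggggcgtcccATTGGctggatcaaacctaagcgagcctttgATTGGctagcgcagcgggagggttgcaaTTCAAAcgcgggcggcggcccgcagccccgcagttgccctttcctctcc
Ccnb2 (chr9:70421535-70421704, minus strand): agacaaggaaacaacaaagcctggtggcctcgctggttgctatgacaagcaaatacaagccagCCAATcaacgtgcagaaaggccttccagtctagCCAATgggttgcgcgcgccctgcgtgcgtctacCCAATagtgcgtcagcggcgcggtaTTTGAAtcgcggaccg
Cdk1 (chr10:69352893-69353062, minus strand): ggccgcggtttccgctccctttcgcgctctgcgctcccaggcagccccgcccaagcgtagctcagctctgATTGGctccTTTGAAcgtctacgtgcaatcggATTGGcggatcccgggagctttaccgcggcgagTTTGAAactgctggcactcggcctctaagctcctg
Mcm6 (chr1:128359686-128359855, minus strand): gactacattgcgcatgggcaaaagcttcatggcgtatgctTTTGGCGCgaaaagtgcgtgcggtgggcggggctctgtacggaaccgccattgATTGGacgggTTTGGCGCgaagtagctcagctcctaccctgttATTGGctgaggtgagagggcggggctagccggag
Cdc6 (chr11:98908001-98908170, plus strand): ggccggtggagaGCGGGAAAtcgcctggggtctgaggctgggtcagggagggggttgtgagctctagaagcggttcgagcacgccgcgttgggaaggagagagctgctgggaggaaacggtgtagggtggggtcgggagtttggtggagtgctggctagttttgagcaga

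Over all members, 33 of 40 had a RefSeq promoter, searched on both strands from 250 bases before to 50 after the start. TTTGAA stood in 15 of 20 promoters of G2 and M members (75%), in 1 of 13 of S members (7.69%) and in 20.2% of the 27025 genes with a promoter. CCAAT together with TTTGAA or TTTAAA stood in 17 of 20 (85%), in 4 of 13 (30.8%) and in 12.2% of all genes. The E2F-type letters TTTGGCGC, TTTCCCGC and TTTGGCGG, which overlap in their G and C stretch, were present as any of the set in 0 of 20 promoters of G2 and M members, in 7 of 13 of S members (53.8%) and in 2.39% of all genes. CCAAT alone stood in 18 of 20 (90%), in 9 of 13 (69.2%) and in 41.1% of all genes, and TTTAAA in 7 of 20 (35%), in 3 of 13 (23.1%) and in 14.9%. TTTGAA and the E2F-type letters thus divided along the phases of the list, which was not chosen by sequence, whereas CCAAT and TTTAAA alone did so much less. A match is a description of these windows and not a bound site.

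After filtering, 8654 WT and 5727 DTR cells remained, with a median of 5635 and 8472 transcripts counted by molecular identifier (UMIs), and 65 barcodes occurred in both libraries. Postn itself gave 84 UMIs in 34 WT cells and 20 UMIs in 8 DTR cells, and among cells of the stromal clusters it was found in 17 of 63 and in 7 of 36. Lineages were rebuilt by clustering without the 40 members or other cycle genes and were named from marker genes, so each cell name below means a cluster that resembles that type.

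To find cycling cells at equal depth, each cell was thinned to 2000 UMIs, and a cell with at least 4 UMIs over the 40 members was called cycling. Mature neutrophils, which do not divide, gave the background: 0 of 42 WT cells (interval up to 8.41%) and 2 of 356 DTR cells (0.562%). Their median was 3159 and 2827 UMIs per cell before thinning. Naive CD4-like T cells, which are mostly at rest, gave 15 of 415 in WT (3.61%, 2.04 to 5.89) and 0 of 18 in DTR (interval up to 18.5%). Their median was 4233 and 3518 UMIs. The called naive cells held 92.2% of the 51 Mki67 UMIs of the WT naive cells, 92.6% of the 95 Top2a UMIs and 95.4% of the 65 Ube2c UMIs. These percentages rest on few cells, since the richest cell for each gene held 35, 60 and 54 of those UMIs. After thinning, 4, 5 and 3 of the 415 cells held any UMI of Mki67, Top2a and Ube2c. These genes also count toward the call. How many of the 15 calls were false was not tested, and the share is given as that of a mostly resting type.

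Myeloid cells cycled most in both libraries: 375 of 1314 WT cells (28.5%, 26.1 to 31.1) and 325 of 1392 DTR cells (23.3%, 21.1 to 25.7), a ratio of DTR to WT of 0.818 (0.720 to 0.930). With cells thinned to 4000 UMIs and a cut of 8 the myeloid ratio turned to 1.10. Among T cells the shares were 183 of 3017 (6.07%, 5.24 to 6.98) and 44 of 452 (9.73%, 7.16 to 12.8), a ratio of 1.6 (1.17 to 2.20). Among NK cells they were 21 of 378 (5.56%, 3.47 to 8.37) and 16 of 145 (11.0%, 6.44 to 17.3), a ratio of 1.99 (1.07 to 3.70). The T and NK shares were thus higher in the DTR library beyond counting error, and the myeloid share lower except at the larger depth. B cells gave 132 of 2614 (5.05%, 4.24 to 5.96) and 33 of 909 (3.63%, 2.51 to 5.06), with a ratio of 0.719 whose interval, 0.495 to 1.04, includes 1. Plasma cells gave 52 of 595 (8.74%, 6.60 to 11.3) and 222 of 2142 (10.4%, 9.10 to 11.7), with a ratio of 1.19 (0.889 to 1.58) that also includes 1. The B shares of both libraries and the NK share of WT lay within the interval of the WT naive CD4-like T cells, 2.04 to 5.89.

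**Figure D1:**
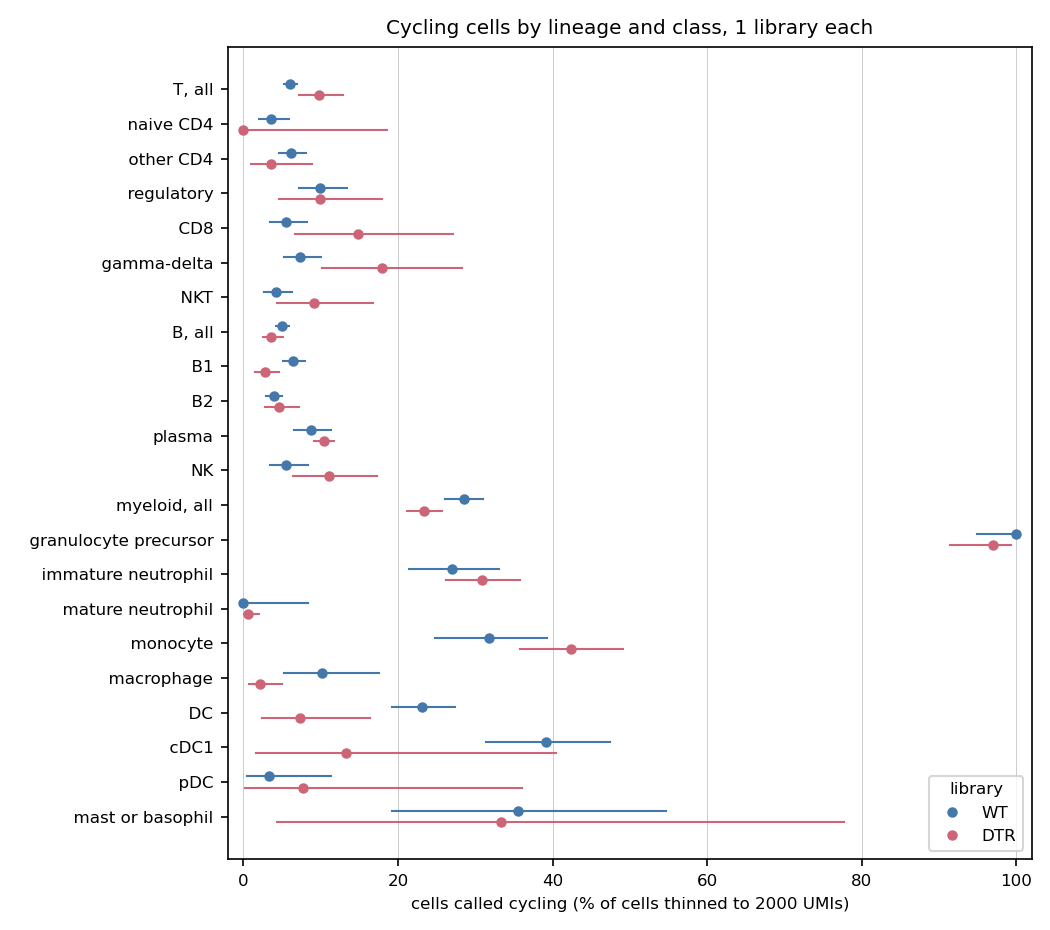
Percent of cells called cycling (horizontal axis, percent of cells thinned to 2000 UMIs) in WT and DTR by lineage and class; points are the shares and bars their exact 95% counting intervals. Granulocyte precursors sit at 100% and 97.0%, mature neutrophils near 0, and the T and NK lineages lie further right in DTR than in WT.

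Thinning left out cells under 2000 UMIs, 160 WT and 59 DTR in T cells, 50 and 34 in B, 9 and 46 in plasma, 19 and 7 in NK and 101 and 285 in myeloid cells. Without thinning, and with a call at 20 member UMIs per 10000, the shares were 4.78% and 8.22% in T, 4.35% and 2.23% in B, 9.11% and 10.2% in plasma, 3.27% and 8.55% in NK and 26.8% and 19.7% in myeloid cells, WT before DTR. Calls near the threshold were common in lymphocytes: 163 WT T cells held 3 member UMIs, 48 held 4 and 110 held 7 or more, against 28, 10 and 28 DTR T cells. In myeloid cells 26, 24 and 315 WT cells and 20, 8 and 298 DTR cells did, so most of their calls lay well above it. Cycling cells were deeper than the other cells of their lineage except in WT NK cells, with medians of 24427 against 9777 UMIs in WT myeloid cells as an example. Barcodes with a high doublet score made up 20.2% of cycling and 3.11% of other WT T cells, and 6.82% and 0.490% of DTR ones. Their part in the shares was measured by leaving them out: the ratios were then 1.82 in T, 0.650 in B, 1.36 in plasma, 2.84 in NK and 0.9 in myeloid cells, each on the same side of 1.

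The members' own UMIs lay mostly in few cells: the 5% of T cells richest in them held 74.8% of all member UMIs in WT and 74.6% in DTR. Genes outside the member list moved with the call, which did not use them. The other mitosis genes, 94 of the 95 listed being present, were higher in cycling than in other cells of the same lineage by a log2 ratio of summed levels from 2.09 to 3.82 over the 5 lineages and both libraries. The other replication genes were higher by 1.94 to 3.46. Quiescence-associated genes were lower in cycling cells in each lineage and library, by a log2 ratio of -0.11 to -1.09, except in DTR plasma cells, at 0.05. These ratios are sums over cells and share the libraries, so they are descriptions.

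The summed level of the 40 members, as the mean over cells of UMIs per 10000, was 8.79 in WT and 11.5 in DTR T cells, 7.30 and 5.38 in B cells, 6.81 and 7.36 in plasma cells, 7.86 and 11.5 in NK cells and 21.6 and 16 in myeloid cells. Each lineage thus stood on the same side in DTR as its share of cycling cells. The call counts UMIs of these same members, so this match is partly set by it and is no separate support. On summed UMIs, which weight deep cells more, the myeloid level was 36.2 in WT and 38.5 in DTR, so its direction depended on the scale.

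**Figure D2:**
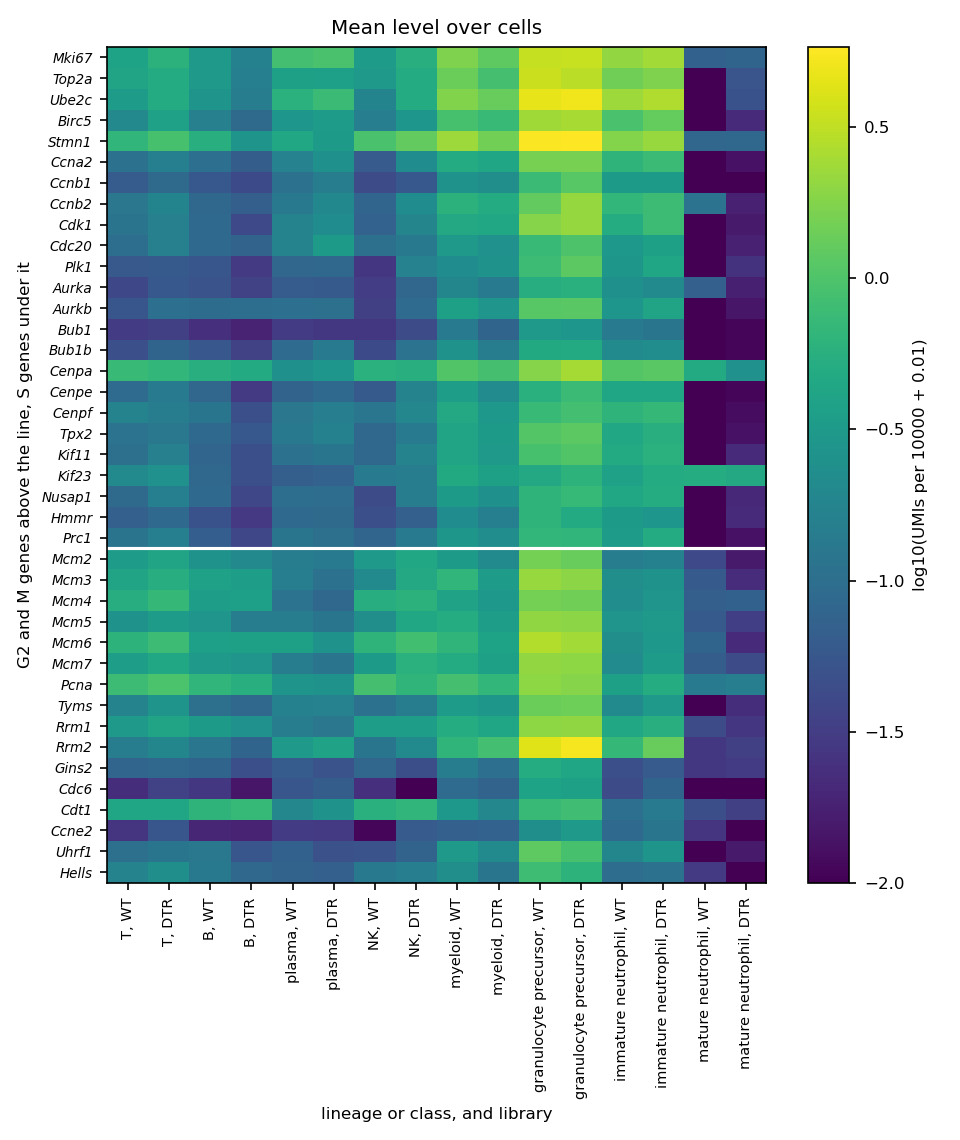
Level of each of the 40 members (colour, log10 of the mean over cells of UMIs per 10000 with 0.01 added) in the 5 lineages and 3 neutrophil classes (columns) of WT and DTR. Read along a row, granulocyte precursors and immature neutrophils stand above the lymphocytes for G2 and M genes such as Ube2c and Mki67, and most members but not Kif23 and Cenpa are darkest in mature neutrophils.

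Among the S genes, the helicase subunit Mcm5 had a mean level over cells of 0.247 in WT and 0.320 in DTR T cells, 0.266 and 0.136 in B cells, 0.136 and 0.108 in plasma cells, 0.223 and 0.442 in NK cells and 0.511 and 0.334 in myeloid cells. It was highest in granulocyte precursors, at 2.01 and 1.92. Pcna, the sliding clamp of DNA polymerase, had means of 0.773 and 0.948 in T, 0.659 and 0.546 in B, 0.260 and 0.251 in plasma, 0.879 and 0.631 in NK and 0.889 and 0.663 in myeloid cells. Pcna was much less confined to cycling cells than the mitotic genes: over lineages and libraries 27.2% to 83.9% of its UMIs lay in them. For the licensing factor Cdt1 the share ranged from 14.4% to 87.3% and for Mcm6 from 18.9% to 93.5%. Each member counts toward the call, so such shares, here and below, are partly set by it and only describe where the UMIs lay.

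Rrm2, the regulated subunit of the enzyme that makes deoxynucleotides, had more of its UMIs in called cells than Pcna, Cdt1 or Mcm6, at 88.7% to 100%. Its mean level was 0.138 in WT and 0.175 in DTR T cells, 0.111 and 0.0684 in B cells, 0.305 and 0.385 in plasma cells, 0.110 and 0.201 in NK cells and 0.642 and 0.867 in myeloid cells. Tyms, which makes thymidylate, had means of 0.164 and 0.263 in T, 0.0951 and 0.0730 in B, 0.156 and 0.159 in plasma, 0.0969 and 0.139 in NK and 0.321 and 0.283 in myeloid cells. Cdc6 and the cyclin E gene Ccne2 were scarce. In T cells Cdc6 had 61 WT and 15 DTR UMIs and Ccne2 41 and 16, and in NK cells Cdc6 had 8 and 0 and Ccne2 1 and 5, too few to compare.

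Among the G2 and M genes, Mki67, which coats mitotic chromosomes and is the usual proliferation marker, had mean levels of 0.397 in WT and 0.587 in DTR T cells and 0.298 and 0.154 in B cells. In plasma cells its means were 0.869 and 0.937, in NK cells 0.326 and 0.550 and in myeloid cells 1.70 and 1.19. The B and myeloid means were thus lower in DTR and the T and NK means higher, as for the cycling shares, toward which Mki67 itself counts. Ube2c, the ubiquitin carrier of the anaphase promoting complex, had 95.3% to 98.3% of its UMIs in cycling cells. Its means were 0.318 and 0.497 in T, 0.257 and 0.140 in B, 0.572 and 0.763 in plasma, 0.166 and 0.496 in NK and 1.73 and 1.30 in myeloid cells.

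The cyclins and their kinase start mitosis. Cdk1 had mean levels of 0.107 in WT and 0.149 in DTR T cells, 0.0785 and 0.0307 in B cells, 0.162 and 0.213 in plasma cells, 0.0633 and 0.173 in NK cells and 0.461 and 0.436 in myeloid cells. Its partner Ccna2 gave 0.101 and 0.145 in T, 0.0917 and 0.0556 in B, 0.160 and 0.233 in plasma, 0.0524 and 0.210 in NK and 0.498 and 0.425 in myeloid cells. At least 86.7% of the UMIs of Ccna2 and of Ccnb1 lay in cycling cells in each lineage and library. Cenpa, the histone of the centromere, was less confined, with 48.4% to 92.3%. Kif23, a kinesin of the dividing midbody, kept a mean level of 0.508 in WT and 0.452 in DTR mature neutrophils, where Ube2c had 0 and 9 UMIs in all.

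**Figure D3:**
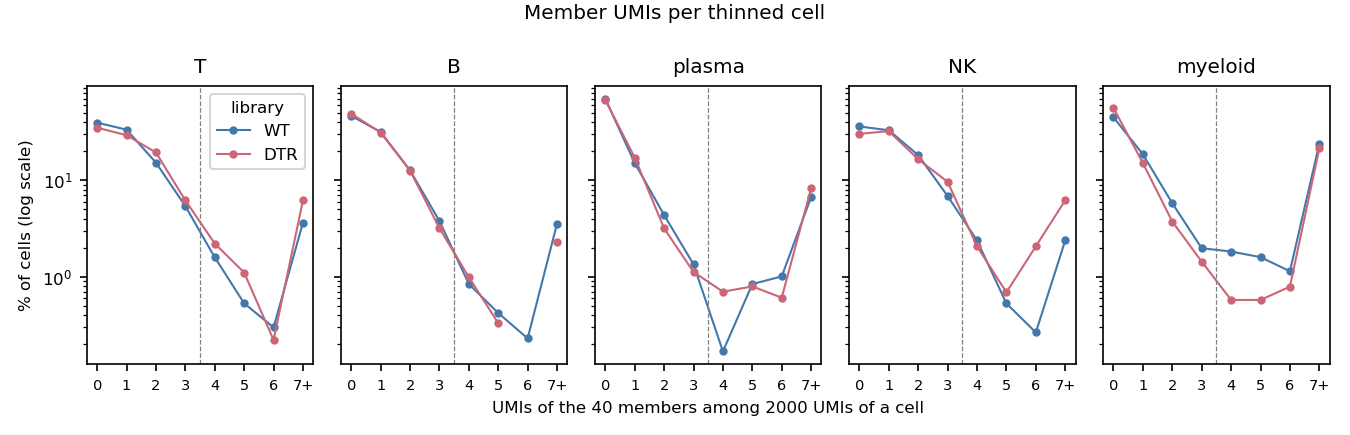
Number of member UMIs per cell after thinning to 2000 UMIs (horizontal axis) against percent of cells (vertical log axis, gaps where no cell was found) for WT and DTR in each lineage, with a dashed line below the call at 4 UMIs. In each lineage the percent of cells falls toward the call and is higher again in the class of 7 or more, which holds 110 WT and 28 DTR T cells.

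T cells compared between the libraries showed members higher in DTR across the list. The log2 ratio of DTR to WT was taken on summed UMIs per 10000, with 0.5 UMI added, for genes with at least 100 UMIs in both libraries together, and a log2 ratio of 1 or more was called past the fold. Its intervals, here and below, take each UMI as independent. Member UMIs lay mostly in few cells, so these intervals leave out the spread between cells and are too narrow for it. Of the 40 members 38 were compared. One was higher past the fold and 0 were lower, where of all 9327 genes compared 1.49% were higher and 1.44% lower. All 38 had a ratio above 0, with a median of 0.52 against 0.03 over all genes, so the shift was broad and mostly short of the fold. The member past it was Aurkb, the mitotic kinase that corrects chromosome attachment, with 234 WT and 76 DTR UMIs and a log2 ratio of 1.08 (0.68 to 1.45). Birc5 (survivin), which works in the same complex, had 889 and 264 UMIs and 0.94 (0.74 to 1.14). Mki67 had 1416 and 376 UMIs and 0.78 (0.61 to 0.94). The lowest ratios were 0.05 (-0.92 to 0.83) for the checkpoint kinase Bub1, with 90 and 14 UMIs, and 0.11 (-0.08 to 0.30) for Cenpa, with 1614 and 270.

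The T subsets did not share one pattern. Gamma-delta T cells had 36 of 491 cycling in WT (7.33%) and 14 of 78 in DTR (17.9%), a ratio of 2.45 (1.39 to 4.33). CD8-like cells had 21 of 382 (5.50%) and 8 of 54 (14.8%), a ratio of 2.69 (1.26 to 5.78). NKT-like cells had 22 of 524 (4.2%) and 9 of 98 (9.18%), a ratio of 2.19 (1.04 to 4.61). These 3 subsets kept a ratio above 1 under the 6 other cuts, depths, seeds and doublet settings tried. Treg-like cells had 38 of 381 (9.97%) and 9 of 91 (9.89%), a ratio near 1 at 0.992. The other CD4 T cells had 51 of 824 (6.19%) and 4 of 113 (3.54%), a ratio of 0.572 (0.211 to 1.55) that includes 1. Differences between subsets were not tested.

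Single members, which count toward the call, followed the subsets. In gamma-delta T cells the mean level of Mki67 was 0.492 in WT and 1.03 in DTR, and that of Ube2c was 0.510 and 1.29. In CD8-like cells Mki67 was at 0.375 and 1.48. In the other CD4 T cells the order was the opposite, with Mki67 at 0.517 and 0.193 and Ube2c at 0.310 and 0.0154, the latter from 383 and 3 UMIs. Of the cycling T cells 48.1% (40.7 to 55.6) in WT and 43.2% (28.3 to 59.0) in DTR were in S by their member UMIs, and 31.7% and 34.1% in G2 or M. The WT T cells included 442 naive CD4-like cells of 3177 and the DTR T cells 19 of 511, so the naive cells, with their low share, weighed more in WT.

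B cells went the other way. Of the 39 members compared, 0 were higher and 3 lower in DTR past the fold, where of all 9348 genes compared 1.26% were higher and 1.66% lower. In all 36 members had a ratio below 0, with a median of -0.51 against -0.01 over all genes. The origin licensing factor Cdc6 had 95 WT and 12 DTR UMIs and a log2 ratio of -1.15 (-2.20 to -0.33). The kinetochore motor Cenpe had 335 and 47 UMIs and -1.04 (-1.52 to -0.61). Hmmr, a spindle assembly protein named after its value was seen, had 243 and 34 UMIs and -1.04 (-1.62 to -0.53). Above 0 stood Cdt1, with 1084 and 356 UMIs and 0.18 (0.00 to 0.35), Ccnb2, with 411 and 124 UMIs and 0.06 (-0.25 to 0.35), and Aurkb, named after its value was seen, at 0.03. With the doublet-scored barcodes left out, 22 of 37 members were lower past the fold and the median was -1.31, where of all 9215 genes 2.26% were lower and the median was -0.01.

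Of the B subsets, B1-like cells had the lower share in DTR beyond counting error. They had 75 of 1162 cycling in WT (6.45%) and 14 of 500 in DTR (2.80%), a ratio of 0.434 (0.248 to 0.760), and it stayed below 1 under the 6 other settings tried. Of those cycling cells 25.3% in WT and 57.1% in DTR carried a high doublet score, and without them the shares were 4.93% and 1.25%. By phase 38 of the 75 WT cells (50.7%, 38.9 to 62.4) and 0 of the 14 DTR cells (interval up to 23.2%) were in S. Mcm5, with 425 UMIs in WT and 66 in DTR, had mean levels of 0.240 and 0.106 there.

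B2-like cells had 57 of 1452 cycling in WT (3.93%) and 19 of 409 in DTR (4.65%), a ratio of 1.18 (0.712 to 1.97) that changed side under other settings. Different clusters held most of them, since cluster 4 held 929 of the 1501 WT cells and cluster 5 held 376 of the 441 DTR cells. Within cluster 4 the shares were 18 of 925 in WT (1.95%) and 4 of 65 in DTR (6.15%), a ratio of 3.16 (1.10 to 9.07). Within cluster 5 they were 39 of 527 (7.40%) and 15 of 344 (4.36%), a ratio of 0.589 (0.330 to 1.05). Of their cycling cells 35.1% (22.9 to 48.9) in WT and 84.2% (60.4 to 96.6) in DTR were in S. Mki67 had 831 UMIs in WT and 101 in DTR B2-like cells, with mean levels of 0.288 and 0.0967, and Pcna had means of 0.661 and 0.563. No division is read from these phase calls alone.

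**Figure D4:**
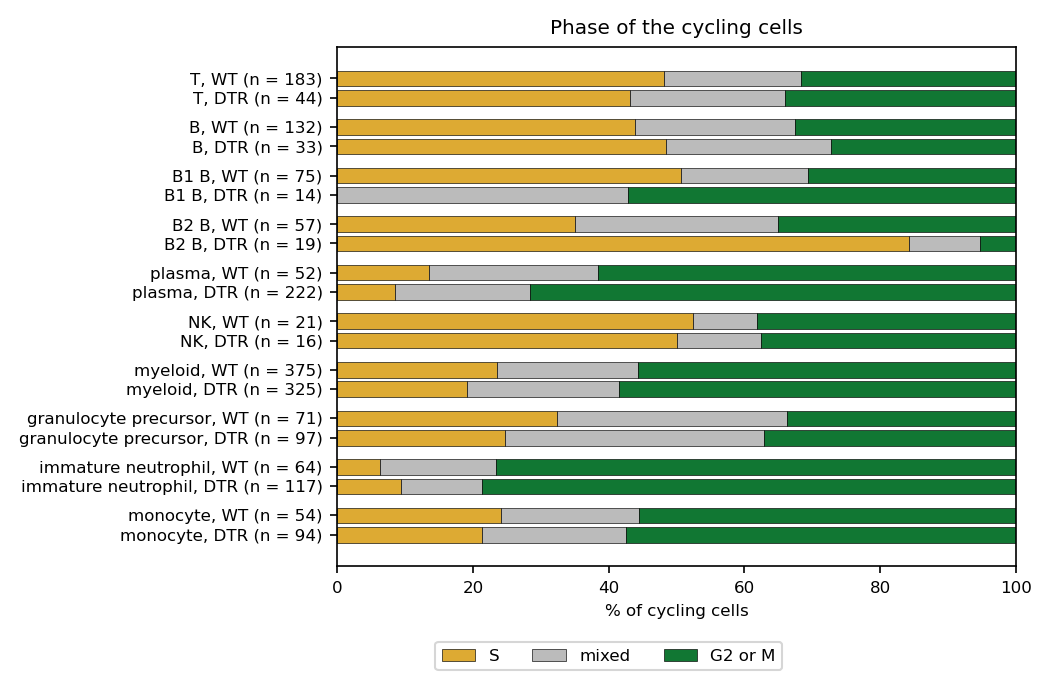
Phase of the cycling cells (horizontal axis, percent of cycling cells in S, mixed, and G2 or M) for WT and DTR in each lineage and class. G2 or M makes up most of the bars of plasma cells, 61.5% and 71.6%, and of immature neutrophils, 76.6% and 78.6%, whereas S is the largest class in T, B and NK cells.

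Plasma cells in division are the plasmablasts, and they lay in G2 or M more often than cycling T or B cells did: 32 of 52 WT cells (61.5%, 47.0 to 74.7) and 159 of 222 DTR cells (71.6%, 65.2 to 77.5). Immunoglobulin genes took 57.4% of the plasma UMIs in WT and 53.9% in DTR. Of the 40 members compared 0 were past the fold in either direction, where of all 9873 genes 2.87% were higher and 5.63% lower. The median log2 ratio was -0.04, against -0.03 over all genes. S members stood lower, at a median of -0.32 with 12 of 16 below 0, than G2 and M members, at 0.04 with 9 of 24 below 0. Cdc20, the activator of the anaphase promoting complex, was highest with 434 WT and 2076 DTR UMIs and 0.71 (0.56 to 0.86), followed by Ccnb2 with 323 and 1270 UMIs and 0.43 (0.25 to 0.61). Uhrf1, which copies DNA methylation marks, was lowest with 155 and 264 UMIs and -0.78 (-1.07 to -0.48), followed by the chromatin remodeller Hells with 172 and 315 and -0.68 (-0.95 to -0.40). Stmn1, a microtubule destabiliser, had 999 and 2079 UMIs and -0.49 (-0.60 to -0.38).

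The plasma share differed more between clusters than between libraries. Cluster 2, led by Ighg1, Ighg2b and Fkbp11, had 35 of 158 WT cells cycling (22.2%, 15.9 to 29.4) and 179 of 987 DTR cells (18.1%, 15.8 to 20.7). Cluster 1, led by Prg2, Jchain and Igha, had 14 of 381 (3.67%, 2.02 to 6.09) and 26 of 954 (2.73%, 1.79 to 3.97). Cluster 17, led by Ighg3, had 3 of 56 (5.36%, 1.12 to 14.9) and 17 of 201 (8.46%, 5.00 to 13.2). The DTR share was the lower one in clusters 1 and 2 and the higher one in cluster 17, with overlapping intervals in all 3, while cluster 2 held 158 of 604 plasma cells in WT and 987 of 2188 in DTR. No listed cycle gene was used to make these clusters, and whether other genes tied to division were was not tested.

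Most cycling plasma cells were of the IgM isotype, as were the others. Ighm was the main heavy chain in 40 of 52 cycling WT cells (76.9%) and 84.3% of the others, and in 183 of 222 cycling DTR cells (82.4%) and 86.1% of the others. In DTR, Ighg1 was the main chain in 5.86% of cycling and 2.55% of other cells, and Igha in 1.35% and 0.31%. Ighg3 went the other way there, at 8.56% and 10.2%. Jchain, which joins IgM into pentamers and marks antibody secretion, was lower in cycling cells, at 157 UMIs per 10000 against 450 in WT and 152 against 265 in DTR. H2-Aa, an MHC class II chain of B cells that mature plasma cells lose, was higher in them, at 6.89 against 2.15 and at 2.66 against 1.46. The B cell surface gene Ms4a1, at 1.64 against 0.825 and 0.491 against 0.412, was higher too, as was the B cell factor Pax5, at 0.141 against 0.0617 and 0.0277 against 0.0113. Of the antigen receptor chains, Cd79b stood at 4.21 against 3.15 in WT and 2.49 against 2.45 in DTR, and Cd79a at 6.41 against 6.56 and 5.71 against 8.06. Of the plasma cell factors, Xbp1 stood at 15.8 against 14.4 and 23.9 against 22.5, Prdm1 at 1.41 against 0.996 and 1.09 against 0.989, and Irf4 at 2.99 against 2.23 and 3.24 against 2.68, each higher in cycling cells of both libraries, although the counting intervals of Prdm1 overlapped in DTR. Sdc1, the plasma cell surface proteoglycan, stood at 1.35 against 1.86 and 1.28 against 1.22. The levels of all these genes include doublet-scored barcodes, whose part in them was not tested.

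NK cells were few, and 14 members passed the 100-UMI filter. Of these 7 were higher in DTR and 0 lower past the fold, where of all 4026 genes 1.04% were higher and 0.695% lower, and 13 of 14 stood above 0 with a median of 0.96 against -0.06 over all genes. Ube2c had 88 WT and 115 DTR UMIs and a log2 ratio of 1.63 (1.22 to 2.05), and Mcm5 had 48 and 54 UMIs and 1.41 (0.83 to 2.01). The Ube2c UMIs lay in 11 WT and 10 DTR cells, with up to 39 and 41 in 1 cell. Mki67 had 145 and 130 UMIs and 1.09 (0.74 to 1.44), Birc5 72 and 65 and 1.10 (0.59 to 1.6), and Stmn1 271 and 249 and 1.12 (0.87 to 1.38). The helicase subunits Mcm7 and Mcm2, named after their values were seen, completed the count at 1.25 and 1.0, with 64 and 64 and with 58 and 49 UMIs. Ube2c, Birc5, Mcm5, Mcm7 and Mcm2 had under 100 UMIs in WT and passed the filter only with their DTR UMIs. Their place in the count thus depends on the library where they were high. The lowest were Pcna, with 180 and 62 UMIs and -0.28 (-0.73 to 0.13), and Cdt1, with 97 and 52 and 0.35 (-0.17 to 0.85). Averaged over cells 1 of the 14 members was higher past the fold, where 0.77% of all genes were. With the filter set at 20 UMIs 23 of 35 members were, where 3.32% of all 8573 genes were. The 21 WT and 16 DTR cycling NK cells had median depths of 4029 and 13624 UMIs, and 33.3% and 0% of them carried a high doublet score.

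**Figure D5:**
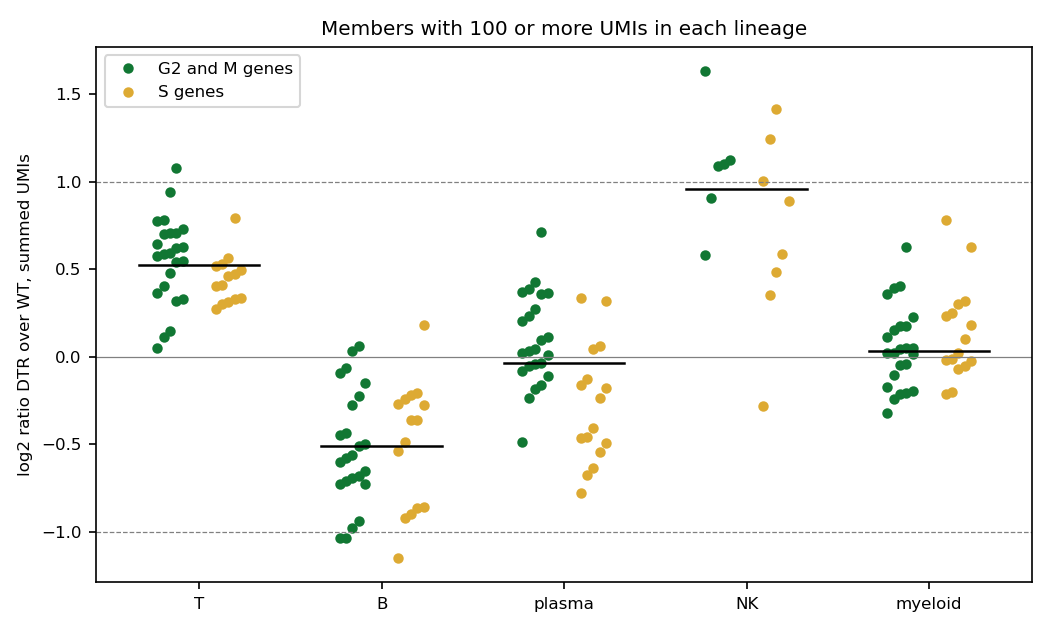
Log2 ratio of DTR to WT on summed UMIs per 10000 (vertical axis) for each member with at least 100 UMIs in both libraries together, by lineage, S and G2 or M members apart, with bars at the medians and dashed lines at the fold. T points all lie above 0, 36 of 39 B points lie below 0, and the plasma and myeloid points lie around 0 within the fold.

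Myeloid cells held the most division, and its source differed by class. Granulocyte precursors, the marrow-type cells that make primary granules, were cycling in 71 of 71 WT cells (100%, 94.9 to 100) and 97 of 100 DTR cells (97.0%, 91.5 to 99.4). Immature neutrophils, which carry secondary granules, were cycling in 64 of 237 (27.0%) and 117 of 379 (30.9%), a ratio of 1.14 (0.883 to 1.48) that includes 1. In the maturation order from precursor to immature to mature neutrophil the mean level of Ube2c went from 4.54 over 2.31 to 0 in WT and from 5.13 over 2.72 to 0.0392 in DTR. S-phase calls were rare among the immature cells. The cycling precursors were in S in 32.4% and 24.7%, and the cycling immature neutrophils in 6.25% (1.73 to 15.2) and 9.40% (4.79 to 16.2), with 76.6% and 78.6% in G2 or M. Mcm5 had means of 2.01 and 1.92 in precursors and 0.267 and 0.307 in immature neutrophils.

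Monocytes were cycling in 54 of 170 WT cells (31.8%) and 94 of 222 DTR cells (42.3%), a ratio of 1.33 (1.02 to 1.74) that stayed above 1 under the 6 other settings tried. Rrm2 had 497 and 955 UMIs there, with mean levels of 0.814 and 1.42, while Mki67 had means of 2.62 and 2.41. Macrophages and dendritic cells went the other way. Macrophages had 11 of 108 cycling in WT (10.2%) and 5 of 233 in DTR (2.15%), a ratio of 0.211 (0.0751 to 0.591). Dendritic cells had 23.1% of 441 WT cells and 5 of 68 DTR cells (7.35%) cycling, a ratio of 0.318 (0.134 to 0.752), and their mean level of Mki67 was 1.31 and 0.287. The Xcr1-type cDC1-like cells had 60 of 153 (39.2%) and 2 of 15 (13.3%), a ratio of 0.340 (0.0922 to 1.25) that includes 1. Of the 5 cycling macrophages and 5 cycling dendritic cells of DTR, 60% and 40% carried a high doublet score.

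Summed over myeloid cells the members stood near even. Of the 40 compared 0 were past the fold in either direction, where of all 10419 genes 3.18% were higher and 7.8% lower, and 24 stood above 0 with a median of 0.03 against -0.13 over all genes. Rrm2 was highest, with 2787 WT and 3660 DTR UMIs and 0.78 (0.71 to 0.85), then the mitotic kinase Plk1, with 864 and 1023 and 0.63 (0.50 to 0.76). Bub1 was lowest with 438 and 268 UMIs and -0.32 (-0.55 to -0.10), then Kif23 with 1266 and 821 and -0.24 (-0.37 to -0.11). The sign of 21 of the 40 turned when levels were averaged over cells in place of summed, so no direction is given for the list in myeloid cells.

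The other genes of the cycle were counted from 9 further lists. In T cells 9 of 83 other mitosis genes compared were higher past the fold and 0 lower, where of all 9327 genes 1.49% were higher and 1.44% lower. Among the 9 were Cdca5, which holds sister chromatids together, at a log2 ratio of 1.37, the kinesins Kif22 at 1.12 and Kif4 at 1.11, and Racgap1 of the cleavage furrow at 1.09. One gene each came from the E2F family, E2f8 at 1.48, from replication, the checkpoint adaptor Clspn at 1.14, and from the anaphase promoting complex, its inhibitor Fbxo5 at 1.02. In B cells 5 of 86 other mitosis genes were lower and 0 higher, where of all 9348 genes 1.66% were lower and 1.26% higher. The 5 were led by Kif20a, a kinesin of cytokinesis, with 182 and 19 UMIs and -1.44, then Cip2a at -1.26, Esco2 at -1.13 and Ect2 at -1.10. The CDK inhibitor Cdkn1a (p21), with 131 and 92 UMIs, was higher at 1.28 (0.87 to 1.67), and the Myc antagonist Mxd1 at 1.0.

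In plasma cells the cyclin E gene Ccne1 stood out, with 175 WT and 1769 DTR UMIs and a log2 ratio of 1.79 (1.57 to 2.02). It was higher in cycling and in other plasma cells alike, at 0.358 in WT and 0.797 in DTR per 10000 UMIs summed over cycling cells and 0.0593 and 0.250 over the others. Of 10 quiescence-associated genes 4 were lower past the fold, where 5.63% of all 9873 genes were. These were Klf6 at -1.66, Btg1 at -1.59, Slfn2 at -1.30 and Fos, an immediate early gene, at -1.04. The tubulin Tuba1b was at -1.01. In NK cells 5 of 25 other mitosis genes compared were higher and 0 lower, with the condensin subunit Smc2 at 1.30, Cks1b at 1.27, H2afx at 1.25, and Pclaf and Lmnb1 both at 1.2.

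In myeloid cells the D-type cyclin Ccnd1 had 2312 WT and 184 DTR UMIs and a log2 ratio of -3.26 (-3.49 to -3.05), and Mycl, a Myc relative, 628 and 35 UMIs and -3.76 (-4.31 to -3.29). Both are leading genes of dendritic cell clusters, whose cells numbered 446 and 71 for the main dendritic class and 153 and 15 for cDC1-like cells, and their part in these ratios was not tested. Foxo1 was lower at -1.18, and Mxd1 and Ccne1 were higher at 1.24 and 1.04. Of 94 other mitosis genes compared there 0 passed the fold in either direction, where of all 10419 genes 3.18% were higher and 7.8% lower.

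Over the 5 lineages and the innate lymphoid cells together 771 of 8161 WT cells (9.45%, 8.82 to 10.1) and 648 of 5239 DTR cells (12.4%, 11.5 to 13.3) were cycling. With the WT make-up of lineages and the DTR shares within them the total would be 9.91%, and with the DTR make-up and the WT shares 12.8%. The ratios of the shares lay on both sides of 1, at 1.6 in T, 1.99 in NK and 1.19 in plasma cells. In B and myeloid cells the ratios were 0.719 and 0.818. The plasma and B intervals include 1. In innate lymphoid cells the ratio was 1.22 (0.467 to 3.20), from 8 cycling cells in each library. Their member level on summed UMIs was lower in DTR, at a log2 ratio of -1.45, so no direction is given for them. Make-up within lineages differed too, with granulocyte precursors at 0.87% and 1.91% of these cells and immature neutrophils at 2.9% and 7.23%. What moved the total was not tested. Among cycling cells of WT 48.6% were myeloid, 23.7% T, 17.1% B and 6.74% plasma cells. Among those of DTR 50.2% were myeloid, 34.3% plasma, 6.79% T and 5.09% B cells.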

How the data were processed

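Single-cell RNA of omentum from WT and DTR mice was measured in 1 library each. The deposited values were natural log values, ln(1 + UMIs per 10000), made by the authors from counts of Cell Ranger 6.0.0 on mm10 per the submitters' processing notes. The labels name a 5′ kit and the study's methods a 3′ kit and another Cell Ranger version. Whole UMIs were recovered from the smallest step of each cell, and 99.96% of WT and 99.90% of DTR values came out whole within 0.1 UMI. Total recovered UMIs were 80640887 in WT and 81120962 in DTR over all barcodes, and 80152189 and 81011216 in the cells kept. Cells with 200 to 7500 genes and at most 25% mitochondrial UMIs were kept, 8654 of 8686 and 5727 of 5736. They were merged without batch correction and clustered with SCTransform in Seurat 5.3.0 (sctransform 0.4.2, R 4.3.3) on 30 components at resolution 0.8, leaving members, listed cycle genes, histone genes and V, D and J segments out of the variable features. A cluster took a name from at least 3 fixed markers at 2 times the level elsewhere. Cluster 24, of which 97.8% were doublets by score, was left unnamed. Scrublet's own threshold marked 2 WT and 103 DTR barcodes, so the top-scored ones, 7.15% in WT and 4.89% in DTR, were treated as doublets. They were kept, and left out as an alternative.

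Each cell was thinned once to 2000 UMIs. Phase was read from the share of S-gene UMIs among member UMIs without Stmn1: S at 2 in 3 or more, G2 or M at 1 in 3 or less, mixed between. Named genes were 17 preset members, the 2 highest and 2 lowest members per lineage, and up to 4 genes past the fold per further list. Members, lists, tests and rules were chosen with earlier results of these data known. No test was run, since there is 1 library per group. The ratio and the call were tested on simulated data. Alternatives changed the cut, depth, seed, doublets, filters, clustering, gates, scale and totals. Sequences are from RefSeq. Python 3.11.15, numpy 2.4.6, pandas 2.3.3 and scipy 1.17.1 were used.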

Additional observations from a re-analysis of the deposited data

How the results depend on the processing

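No paired analysis was possible because each group has 1 library. Under all 16 planned and 3 added settings of the call, the last chosen after seeing the data, the ratio of DTR to WT cycling shares stayed above 1 in T (1.39 to 2.12), plasma (1.09 to 1.36) and NK cells (1.31 to 3.13) and below 1 in B cells (0.511 to 0.787). In myeloid cells it ran from 0.722, and it turned to 1.10 when cells were thinned to 4000 UMIs with a cut of 8. With phase split at 1 in 2, S took 55.7% of WT T, 53.8% of WT B, 13.5% of DTR plasma and 29.3% of WT and 28.3% of DTR myeloid cycling cells. With Stmn1 among the G2 and M genes it took 28.6% in WT NK and 16.5% and 12.9% in WT and DTR myeloid cells. Counts of members past the fold moved by over 1.5 times as follows, with the share of all genes past it in the same direction and setting in brackets. In T cells 2 were higher at 20 UMIs (3.78%), 2 without the filter (16.9%) and 5 without doublets (1.6%). In B cells 11 were lower averaged over cells (2.17%), 1 with 2 UMIs added (1.4%) and 22 without doublets (2.26%), where the median was -1.31. In NK cells 1 was higher averaged over cells (0.77%), 23 at 20 UMIs (3.32%) and 26 without the filter (12.4%), where 1 was lower (9.36%). In myeloid cells 1 was lower averaged over cells (13.8%), and the median was -0.43 against -0.32 over all genes. Summed in place of averaged, the level of the 40 members was 15.7 in WT and 22.2 in DTR T cells, 14.0 and 10.4 in B, 8.37 and 8.70 in plasma, 12.3 and 24.7 in NK and 36.2 and 38.5 in myeloid cells. The causes were not tested. One library per genotype, few DTR T and NK cells and doublet-scored barcodes among cycling cells limit each comparison.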

Other observations

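Cells outside the 5 lineages also held member UMIs. Stromal cells had 38 of 63 cycling in WT (60.3%) and 13 of 36 in DTR (36.1%), and all of these lay in cluster 26, led by the collagen genes Col3a1 and Col1a1 and by Dcn, with 38 of 46 WT cells (82.6%, 68.6 to 92.2) and 13 of 27 DTR cells (48.1%, 28.7 to 68.1). In G2 or M were 35 of the 38 (92.1%) and 10 of the 13 (76.9%). In cluster 26 the mean level of Ube2c was 11.6 in WT and 4.14 in DTR, that of Mki67 8.02 and 2.13 and that of Ccnb2 4.89 and 1.44, while the S gene Mcm5 stood at 0.578 and 0.305. Stromal cells were few in both libraries. Innate lymphoid cells had 8 of 243 (3.29%) and 8 of 199 (4.02%) cycling, near the share of naive CD4-like T cells. Mast cells or basophils had 11 of 31 (35.5%) and 2 of 6 (33.3%), and pDC-like cells 2 of 61 (3.28%) and 1 of 13 (7.69%).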
